A study of Sinohyriopsis cumingii with 10 samples.

Results

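The middle phase of pearl sac formation was compared with the end of the first day in the freshwater pearl mussel Sinohyriopsis (Hyriopsis) cumingii. The members of the comparison were chosen by their labelled time after implantation: the pearl sac libraries of 48 h, 96 h and 7 d formed the middle phase, and those of 12 h and 24 h formed the first-day group. These are 5 of the 10 libraries in the series, which runs from 0 h to 30 d with 1 library per time. All mussels were 2 years old, with shells of 9 to 10 cm, were held in aerated water and fed algae, and had received a mantle implant, so no group is free of surgery. The labels name no strain or sex and do not say which tissue was taken at 0 h. A difference in tissue at 0 h cannot be told apart from change over time. The labels also leave unsaid if each library is 1 mussel or a pool. Neighbouring times therefore stand in for replicates, and the spread within a phase holds change over time as well as differences between mussels and between libraries.

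In cultured pearl production a strip of mantle from a donor mussel is placed in the tissue of a host. Haemocytes, the circulating immune cells of molluscs, gather at the wound, while the outer epithelium of the graft spreads and closes into a pouch, the pearl sac. The sac epithelium then secretes the organic matrix and the calcium carbonate of nacre. The title of the series places its interest in immune responses during this process.

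Transcript levels were measured by RNA sequencing as reads per contig, a piece of an assembled transcript. The files pair no contig with a gene name or a sequence, so a change cannot be given to a gene, a pathway or a cell type, several contigs can belong to 1 gene, and the labelled tissue could not be checked against markers. The 5 libraries ranged in depth from 20315910 reads (96 h) to 24069268 (24 h). In bulk tissue a loss of a cell type and less RNA per cell cannot be told apart.

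The most abundant contigs differed between the phases in their rank order within each library, which needs no scaling between libraries. Of the 100 most abundant contigs of a library, 65 were shared by all 3 middle libraries and 78 by both first-day libraries, and 33 by all 5. These 3 numbers are not alike, since an overlap can only shrink as libraries are added. Pairs across the phases shared from 43 (7 d and 12 h) to 61 (48 h and 24 h). Pairs within a phase shared from 67 (7 d and 48 h) to 82 (96 h and 48 h). A group of 17 contigs was among the top 100 in all 3 middle libraries and in neither first-day library, and 23 were there in both first-day libraries and in no middle library. The 17 contigs that entered the top 100 held 4.25%, 5.66% and 4.64% of the reads at 48 h, 96 h and 7 d, against 1.37% and 1.58% at 12 h and 24 h. The 23 that left it held 1.81%, 0.831% and 0.663% of the reads at 48 h, 96 h and 7 d, against 6.44% and 7.21% at 12 h and 24 h. Libraries outside the comparison differed in the same contigs: of the 23 that left 17, 19 and 20 were in the top 100 at 0, 2 and 6 h, and 4 and 17 at 14 and 30 d, while of the 17 that entered 3, 2 and 3 were there at 0, 2 and 6 h, and 12 and 5 at 14 and 30 d. In the test of single contigs given further on, 19 of the 23 fell under both scalings, while of the 17 only 1 rose under TMM and 10 with total counts. The 17 and the 23 were chosen by rank in the same 5 libraries, which favours these shares of reads and these calls. They are therefore a description. A contig can enter a top 100 because others leave it.

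Reads were spread over more contigs in the middle phase. The most abundant contigs that together held 50% of a library's reads numbered 330, 263 and 395 at 48 h, 96 h and 7 d, against 200 and 167 at 12 h and 24 h. The groups did not overlap, with means of 329 ± 66.0 (SD, n = 3) in the middle phase and 184 ± 23.3 (SD, n = 2) on the first day (exact two-sided permutation p = 0.2, which is the smallest that 3 against 2 libraries allow). The 10 most abundant contigs held 8.90%, 11.0% and 10.2% of the reads at 48 h, 96 h and 7 d, against 13.9% and 16.0% at 12 h and 24 h. The number of contigs holding 50% depended on the unit: counted on RPKM, which divides reads by contig length, it was 92, 42 and 109 at 48 h, 96 h and 7 d, against 61 and 52 at 12 h and 24 h, and the groups overlapped (exact two-sided permutation p = 0.6). The number of contigs with at least 1 read did not separate the phases: it was 160493, 147292 and 169216 at 48 h, 96 h and 7 d, and 154693 and 148828 at 12 h and 24 h, out of 211674 (exact two-sided permutation p = 0.6).

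Every pair of libraries from different phases differed more in the median contig than any pair from the same phase. Under TMM scaling, a correction that sets most contigs to no change between libraries, the median absolute difference on the log2(CPM + 1) scale was 0.33 to 0.46 in the 6 pairs across the phases and 0.22 to 0.30 in the 4 pairs within a phase. CPM is the count of a contig divided by the library total and scaled to 1000000 reads. With total-count scaling, which uses the library totals alone, the ranges were 0.38 to 0.56 across and 0.27 to 0.30 within. Contigs at least 4-fold apart under TMM numbered 1690 between 7 d and 12 h, and 368 between 48 h and 24 h, the adjoining times. Pairs within a phase reached past 368, with 436 between 7 d and 48 h, 218 between 24 h and 12 h, 192 between 7 d and 96 h and 149 between 96 h and 48 h.

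**Figure D1:**
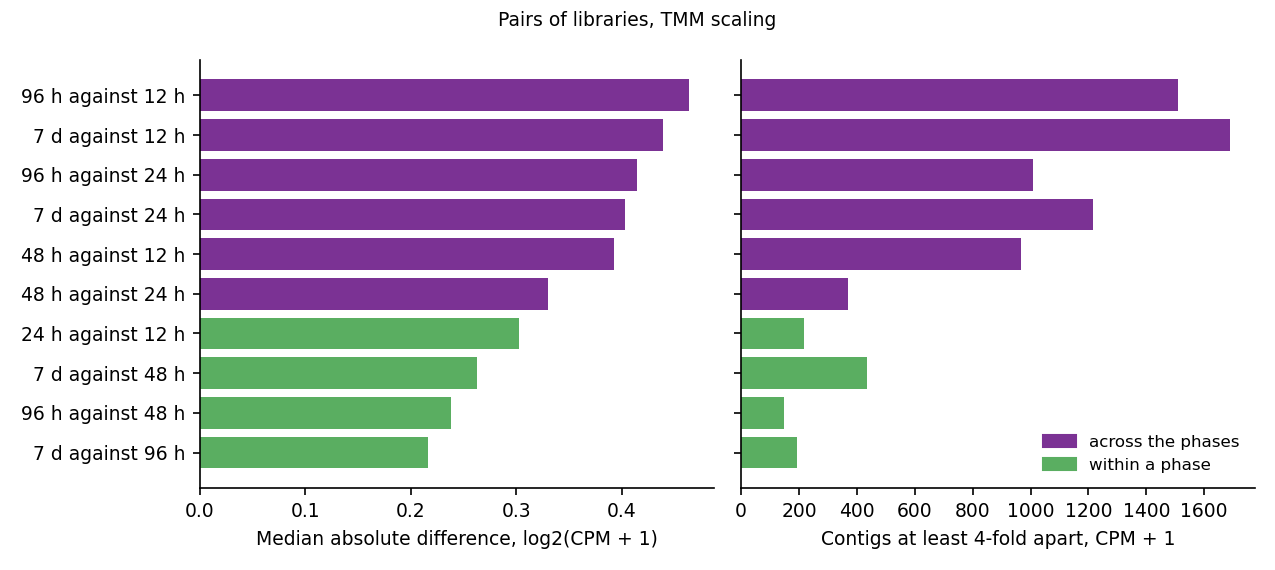
Each bar is 1 pair of libraries under TMM scaling, with the median absolute difference over 52127 contigs on the log2(CPM + 1) scale at the left and the number of contigs at least 4-fold apart at the right. The 6 pairs across the phases (purple) lie between 0.33 and 0.46 at the left, and the 4 pairs within a phase (green) between 0.22 and 0.30.

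The comparison of single contigs was run over 52127 contigs, 24.6% of those in the files, that had enough reads to test. Under TMM, 4667 contigs changed (8.95% of those tested), of which 1475 rose in the middle phase (2.83%) and 3192 fell (6.12%) in edgeR's quasi-likelihood test with Benjamini-Hochberg adjustment at 0.05. With total counts the balance turned: of 7739 contigs that changed (14.8%), 5912 rose (11.3%) and 1827 fell (3.50%) in the same test. The median of all tested contigs was 0.02 on the log2 scale under TMM and 0.50 with total counts, a shift of 0.48 that comes from the scaling alone. All 1475 contigs that rose under TMM also rose with total counts, and 1782 contigs (3.42%) fell under both scalings, which gives 3257 in all (6.25%). No contig that fell under TMM rose with total counts. The 1475 and the 1782 are described from here on, since their direction does not rest on the scaling.

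These calls rest on 3 residual degrees of freedom and on single libraries. Under TMM edgeR called 0 contigs without 96 h (10277 had an unadjusted p under 0.05), 15 without 12 h, 1435 without 7 d and 2803 without 24 h. Fitted with all 10 libraries in 4 phases, it called 13 contigs in place of 4667, all of them lower. With total counts it called 0 contigs without 96 h (14595 had an unadjusted p under 0.05), 1361 without 12 h, 2956 without 7 d and 3579 without 24 h.

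The size of change in the 2 sets is not compared, since they were not held to the same bar. Every contig that rose under TMM also passed with total counts, whereas 1410 contigs that fell under TMM, with a median log2 fold of -1.56, did not and were left out. The 1475 had a median log2 fold of 1.88 under TMM and 2.34 with total counts, and the 1782 a median of -2.56 and -2.09. At least 8-fold under both scalings were 178 contigs that rose and 320 that fell, and at least 64-fold 18 that rose and 8 that fell. The 3 middle libraries lay above both first-day libraries under both scalings in all 1475, and below them in 1777 of the 1782. Such separation by itself is common in these data: under TMM it held upward for 23.6% of the tested contigs and downward for 23.9%, and with total counts for 40.1% and 11.3%. Few contigs were both separated and at least 4-fold different in mean CPM + 1, which leaves out most contigs of low level: 98 higher (0.188%) and 623 lower (1.20%) under TMM, and 255 higher (0.489%) and 341 lower (0.654%) with total counts. With fewer libraries asked to be apart, 19069 contigs were separated upward and 19160 downward without 24 h under TMM, and the numbers also 4-fold higher were 185 without 12 h, 176 without 24 h and 180 without 48 h, with 966 lower without 24 h.

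**Figure D2:**
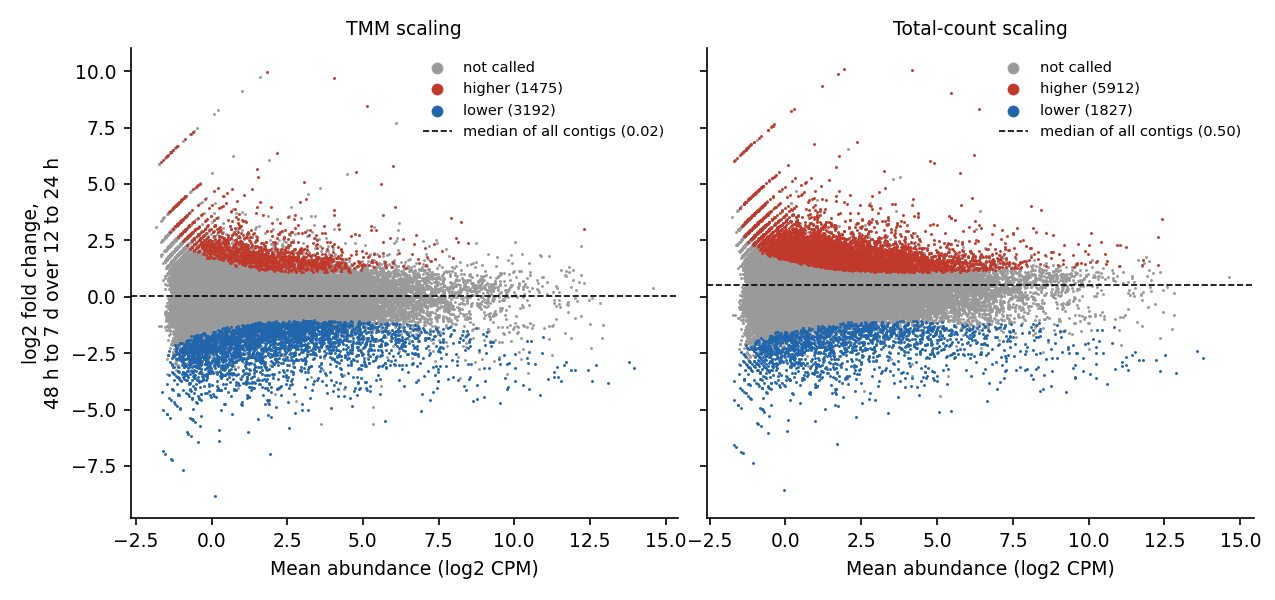
Each point is 1 of 52127 contigs, with the mean abundance (log2 CPM) on the horizontal axis and the log2 fold change of 48 h to 7 d over 12 to 24 h on the vertical axis, under TMM (left) and total counts (right). Contigs called higher are red, contigs called lower blue, and the dashed line is the median of all contigs, 0.02 at the left and 0.50 at the right.

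The contigs that fell carried a large part of the RNA of the first day. The 1782 held 7.61%, 3.60% and 3.11% of all reads at 48 h, 96 h and 7 d, against 26.0% and 28.0% at 12 h and 24 h. The 1475 contigs that rose held 2.07%, 3.08% and 3.11% at 48 h, 96 h and 7 d, against 0.413% and 0.492% at 12 h and 24 h. These shares are of contigs picked for their difference and are given as a description. In the 5 libraries that the test did not use, the 1782 held 29.6%, 34.0% and 36.9% over 0, 2 and 6 h, then 7.65% and 21.2% over 14 and 30 d. The 1475 held 0.779%, 0.593% and 0.484% over 0, 2 and 6 h, then 2.19% and 1.06% over 14 and 30 d. At 14 d the share of the rising set lay within the middle range and that of the falling set just above it, and at 30 d both lay between the phases.

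**Figure D3:**
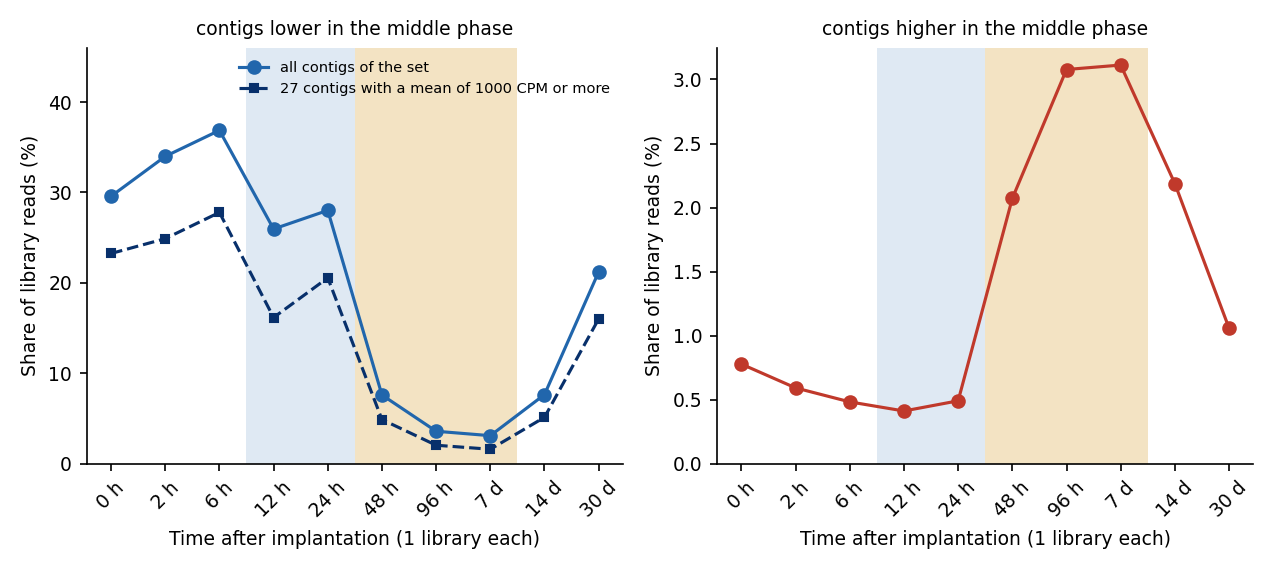
Share of each library's reads (%) held by the 1782 contigs lower in the middle phase (left, with the 27 most abundant of them as the dashed line) and by the 1475 contigs higher in it (right), over the time after implantation. The blue band marks 12 h and 24 h and the tan band 48 h to 7 d. At 7 d both sets held 3.11%, while at 24 h they held 28.0% and 0.492%.

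Most of that RNA lay in a few contigs. Among the 143 most abundant tested contigs, those averaging 1000 CPM or more over the 5 libraries, 27 fell under both scalings (18.9%) and 1 rose under both (0.699%). This imbalance depended on the scaling: in the test with total counts, 30 of the 143 fell (21.0%) and 19 rose (13.3%). The 27 held 4.90%, 2.06% and 1.61% of the reads at 48 h, 96 h and 7 d, against 16.2% and 20.6% at 12 h and 24 h. Over 0, 2 and 6 h they held 23.3%, 24.9% and 27.8%, and over 14 and 30 d 5.14% and 16.0%. Both first-day libraries already lay below all 3 of these earliest libraries in 21 of the 27 under TMM and in 14 with total counts, against 77 and 37 of all 143. All 3 middle libraries lay below all 3 libraries of 0 h to 6 h in 24 of the 27 under either scaling, against 63 of all 143 under TMM and 39 with total counts. The 30 d value was above all 3 middle values in 24 of the 27 under TMM and in 23 with total counts, against 61 and 41 of all 143. The choice of contigs that were low in the middle phase favours positions of any other library above it, so these counts were not tested.

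The share of contigs that fell grew with abundance under both scalings. Under TMM it was 3.50% of contigs with a mean under 1 CPM, 6.75% at 1 to 10, 10.0% at 10 to 100, 12.1% at 100 to 1000 and 18.9% at 1000 and over. With total counts the shares were 2.13%, 3.46%, 6.07%, 10.3% and 21.0% in the same order. The share of contigs that rose peaked in the middle classes, with 3.76% at 1 to 10 CPM and 3.73% at 10 to 100 under TMM and 13.8% and 16.8% with total counts. At 100 to 1000 and at 1000 and over it was 1.63% and 0.699% under TMM, but 11.3% and 13.3% with total counts. Under 1 CPM it was 1.38% and 6.25%. Depth limits the lowest class, where 1 CPM is 20 to 24 reads, and 265 of the 1475 and 401 of the 1782 lay there.

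**Figure D4:**
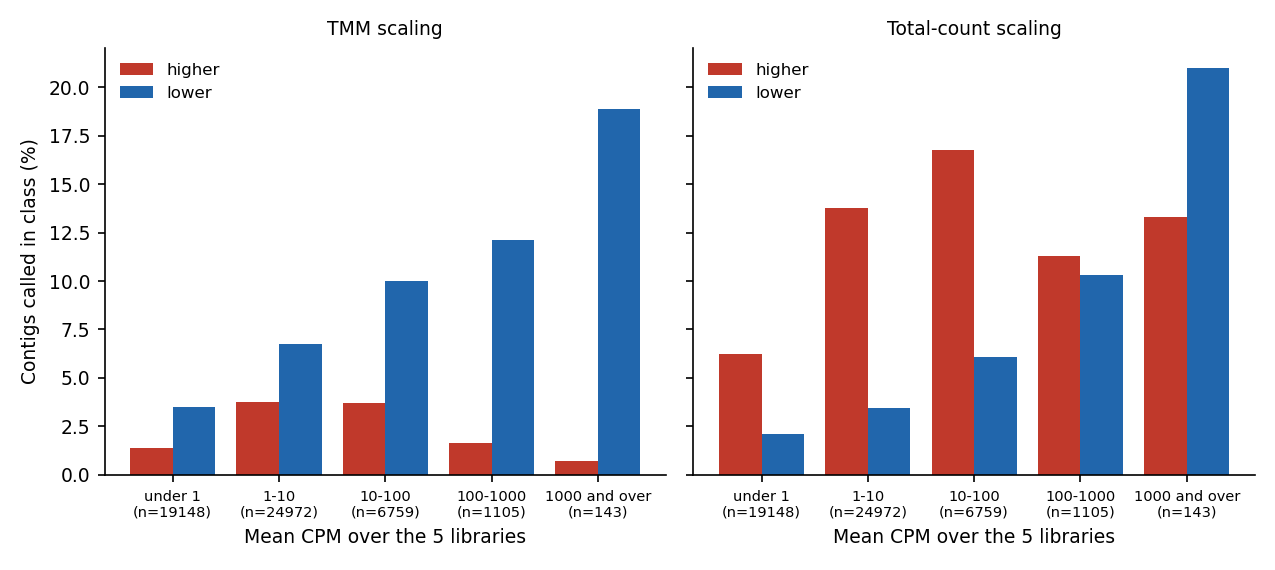
Share of the tested contigs of each abundance class (%) called higher (red) or lower (blue) in the middle phase by edgeR's quasi-likelihood test, under TMM (left) and total counts (right). In the class of 1000 CPM and over, which holds 143 contigs, 18.9% under TMM and 21.0% with total counts were lower.

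Contigs of 1 to 10 CPM among the 1782 followed another course than the 27. For the 849 with a mean of 1 to 10 CPM, the median total-count CPM was 0.485, 2.17 and 2.17 over 0, 2 and 6 h, 6.38 and 3.78 over 12 and 24 h, 1.49, 0.886 and 1.06 over 48 h, 96 h and 7 d, and 0.916 and 1.13 over 14 and 30 d. Under TMM factors of all 10 libraries it was 0.717, 2.98 and 3.54 over 0, 2 and 6 h, 6.15 and 3.84 over 12 and 24 h, 1.06, 0.713 and 0.644 over 48 h, 96 h and 7 d, and 0.794 and 1.15 over 14 and 30 d. The median was thus highest at 12 h under both scalings. From 48 h on it was within the range of 0 h to 6 h with total counts, but under TMM it was below that range at 96 h and 7 d. Both first-day libraries lay above all 3 libraries of 0 h to 6 h in 387 of the 849 under TMM and in 501 with total counts, against 6248 and 10751 of all 24957 contigs of that class. For the 27 abundant contigs that number was 3 under either scaling, against 26 and 44 of all 143. Over the whole set, the first day lay above 0 h to 6 h, and the middle phase neither above nor below it, in 690 of 1782 under TMM (38.7%, against 14.1% of all tested contigs) and in 783 with total counts (43.9%, against 9.21%). The first day lay within the range of 0 h to 6 h, or overlapped it, and the middle phase below it, in 402 (22.6%, against 4.31%) under TMM and in 241 (13.5%, against 1.08%) with total counts. The choice of contigs that were high on the first day raises both shares, so they are not tested. All shares of positions relative to libraries outside the comparison use the 52089 tested contigs that could be read in all 10 libraries as their base.

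In most of the contigs that rose, the first day lay below 0 h to 6 h. Both first-day libraries lay below all 3 libraries of 0 h to 6 h in 1067 of the 1475 (72.3%, against 21.1% of all tested contigs), and with total counts in 764 (51.8%, against 9.91%). Whether the middle phase then exceeded the start depended on the scaling. All 3 middle libraries lay above all 3 of 0 h to 6 h in 403 (27.3%, against 16.5% of all tested contigs) under TMM and in 1130 (76.6%, against 55.5%) with total counts. The median total-count CPM of the 1475 was 2.07, 1.45 and 1.24 over 0, 2 and 6 h, 0.821 and 0.831 over 12 and 24 h, 3.67, 4.18 and 5.07 over 48 h, 96 h and 7 d, and 3.76 and 2.35 over 14 and 30 d. Under TMM factors of all 10 libraries it was 3.07, 1.99 and 2.03 over 0, 2 and 6 h, 0.792 and 0.845 over 12 and 24 h, 2.61, 3.37 and 3.08 over 48 h, 96 h and 7 d, and 3.25 and 2.40 over 14 and 30 d. Under both scalings the lowest medians were those of the first day, but under TMM the 0 h median was close to that of 7 d. The choice of contigs that were low on the first day favours both the positions below 0 h to 6 h and the low medians. They were therefore not tested.

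Later libraries were compared with the first day and the middle phase contig by contig. At 14 d, 1372 of the 1475 that rose were still above both first-day libraries (93.0%, against 40.5% of all tested contigs) under TMM and 1395 (94.6%, against 45.2%) with total counts. At 30 d the numbers were 1337 (90.6%, against 39.4%) and 1328 (90.0%, against 37.9%). Of the 1782 that fell, 1649 were still below both first-day libraries at 14 d under TMM (92.5%, against 43.1%) and 1439 at 30 d (80.8%, against 42.3%), with 1617 (90.7%, against 38.7%) and 1443 (81.0%, against 43.9%) under total counts. The first-day values were used to choose these contigs, which favours such positions at any other time. The comparison of 14 d and 30 d with 0 h to 6 h uses no library of the test. Both late libraries lay below all 3 early ones in 459 of the 1782 under TMM (25.8%, against 10.9% of all tested contigs) and in 257 with total counts (14.4%, against 2.93%). Both late libraries lay above all 3 early ones in 210 of the 1475 under TMM (14.2%, against 11.9%) and in 633 with total counts (42.9%, against 35.7%).

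The median share of the 24 h to 7 d difference present at 48 h was higher in the called sets than over all tested contigs. For the 1475 contigs, the median share of the 24 h to 7 d difference in log2(CPM + 1) reached at 48 h was 82.5% under TMM and 78.1% with total counts, and for the 1782 it was 79.1% and 76.5%, against 61.8% and 61.7% for all tested contigs. The step from 24 h to 48 h was the largest of the 3 steps between 24 h and 7 d in 1310 of the 1475 and 1719 of the 1782 under TMM, and in 1408 and 1453 with total counts, against 25010 and 24218 of all 52127 tested contigs. Since contigs were chosen for a difference between these sides, a high share and a large step there are in part a result of the choice. The share also divides differences that both start from the 24 h value. This raises it even where levels only vary between libraries, so the share over all tested contigs does not show an early change. Within the middle phase, the rising contigs were lowest at 48 h in 917 of 1475 under TMM and in 828 with total counts, against 18586 and 16111 of all 52127. The falling contigs were highest at 48 h in 1252 of 1782 and in 1242, against 18601 and 18144 of all 52127. The later order depended on the scaling: the rising contigs had their highest middle value at 96 h in 750 and at 7 d in 534 under TMM, but at 7 d in 975 and at 96 h in 289 with total counts. Over all 52127 contigs the highest middle value was at 96 h in 15428 and at 7 d in 18098 under TMM, and at 7 d in 27728 and at 96 h in 6255 with total counts.

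Called contigs were longer at the median than all tested contigs, but within 1 class of abundance the share that rose fell with length. The 1475 had a median length of 1378 bases and the 1782 of 1474 bases, against 1127 for all tested contigs, and longer contigs gather more reads and are tested with more precision. Within the class of 10 to 100 CPM, the share that rose under both scalings was 5.44% in the shortest of 4 equal groups by length, 4.38% in the next, 3.61% in the one after and 1.48% in the longest. The share that fell in the same class was 6.68%, 5.86%, 5.92% and 5.38%.

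Single contigs are named for each direction by rule: the one with the lowest p, and the called and separated one with the largest difference in mean CPM. Their CPM values are with total counts, and their standard errors were derived from the F statistic. contig163705 (1521 bases) had the lowest p among the contigs that rose. It was at 80.3, 94.6 and 193 CPM at 48 h, 96 h and 7 d, against 1.16 and 1.95 CPM at 12 h and 24 h. The groups were far apart, with a mean of 122 ± 61.1 CPM (SD, n = 3) in the middle phase and 1.56 ± 0.561 CPM (SD, n = 2) on the first day. Its log2 fold was 5.78 ± 0.54 (SE) under TMM (edgeR adjusted p = 0.0161) and 6.29 ± 0.60 with total counts (edgeR adjusted p = 0.00651). The call was lost without 96 h (edgeR adjusted p = 0.110), without 12 h (0.0588) and with all 10 libraries (0.0792). Outside the comparison its CPM was 6.61, 0.588 and 10.3 over 0, 2 and 6 h and 23.9 and 7.44 over 14 and 30 d, so that the 3 middle libraries were its highest of all 10.

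contig253341 (421 bases) had the largest gain in mean CPM of those called higher. It was at 5492, 11193 and 9216 CPM at 48 h, 96 h and 7 d, against 509 and 1075 CPM at 12 h and 24 h. Its 227399 reads at 96 h were 1.12% of that library, and it was the 1 contig of the class of 1000 CPM and over that rose under both scalings. The log2 fold was 3.00 ± 0.66 (SE) under TMM (edgeR adjusted p = 0.0329) and 3.45 ± 0.57 with total counts (edgeR adjusted p = 0.0122). The call was lost without 96 h (edgeR adjusted p = 0.124), without 12 h (0.191), without 24 h (0.0790) and with all 10 libraries (0.157). Its CPM was 187, 668 and 50.4 over 0, 2 and 6 h, and 4392 and 724 over 14 and 30 d. The 12 h and 24 h values differed by more than 2-fold in this contig, and the value at 2 h was above that at 12 h.

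contig032572 (2343 bases) had the lowest p among the contigs that fell. It was at 0.464, 0.246 and 0.461 CPM at 48 h, 96 h and 7 d, from 10, 5 and 10 reads, against 7.49 and 6.23 CPM at 12 h and 24 h, from 155 and 150 reads. The log2 fold was -4.59 ± 0.35 (SE) under TMM (edgeR adjusted p = 0.0161) and -4.11 ± 0.42 with total counts (edgeR adjusted p = 0.00651). The call was lost without 96 h (edgeR adjusted p = 0.110) and held without 12 h (0.0292) and with all 10 libraries (0.0158). On log2(RPKM + 1) the difference was -1.75, since 1 is large beside so low a level. Its CPM was 1.19, 1.63 and 2.17 over 0, 2 and 6 h, and 0.321 and 0.330 over 14 and 30 d. This contig had its highest values on the first day, and every library from 48 h on lay below every library up to 24 h.

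contig169027 (834 bases) had the largest loss in mean CPM of those called lower. It was at 7083, 3169 and 2756 CPM at 48 h, 96 h and 7 d, against 23493 and 32668 CPM at 12 h and 24 h. The log2 fold was -3.16 ± 0.65 (SE) under TMM (edgeR adjusted p = 0.0281) and -2.70 ± 0.52 with total counts (edgeR adjusted p = 0.0146). The call was lost without 96 h (edgeR adjusted p = 0.142), without 12 h (0.102), without 24 h (0.0891), without 7 d (0.0517) and with all 10 libraries (0.0852). Its levels over 0, 2 and 6 h were 26297, 32316 and 33478 CPM, and those over 14 and 30 d were 7509 and 28035 CPM. The 30 d library was thus back within the range of 0 h to 24 h.

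**Figure D5:**
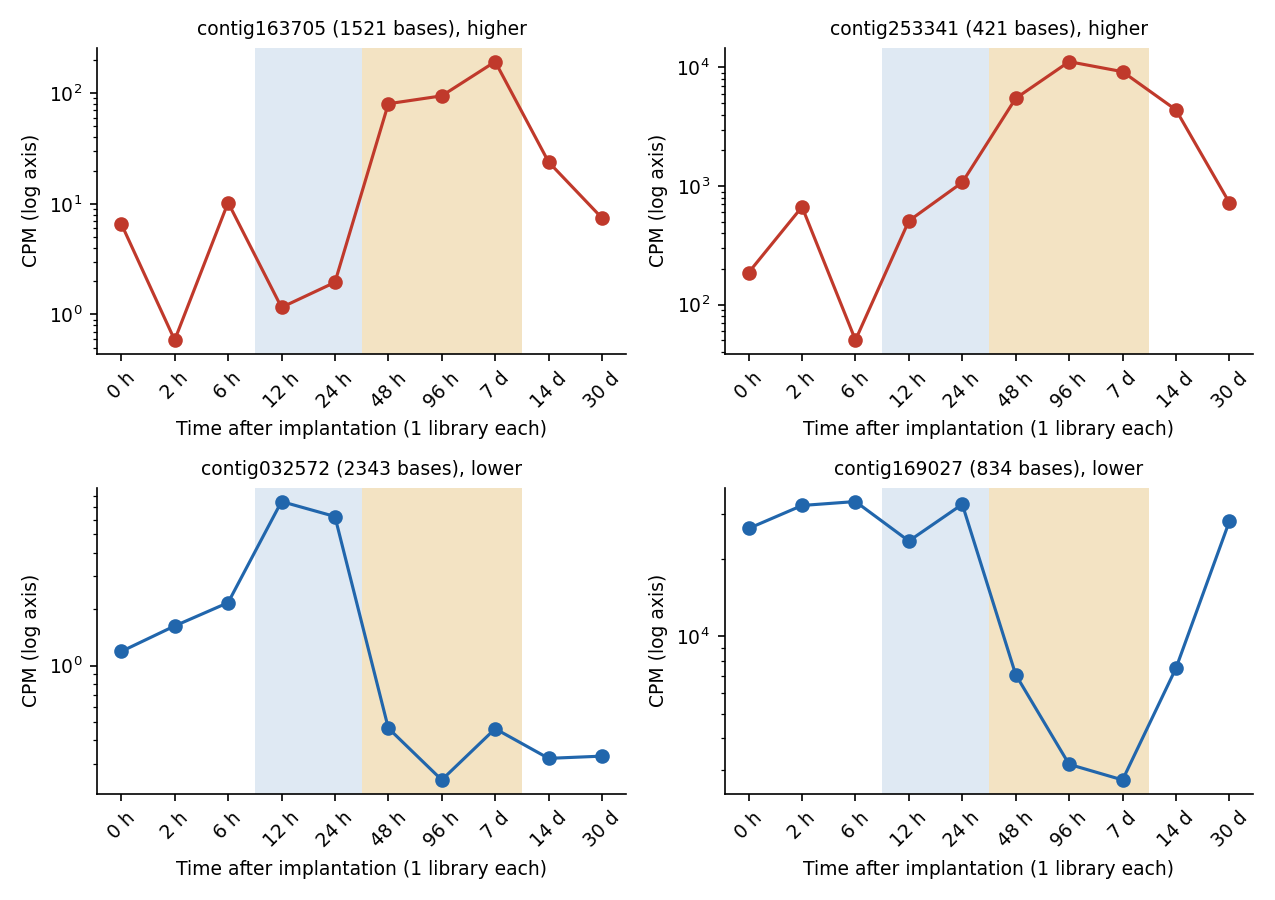
Level of the 4 named contigs (CPM with total counts, log axis) in each of the 10 libraries over the time after implantation, with 12 h and 24 h in the blue band and 48 h to 7 d in the tan band. The 2 contigs in red are higher and the 2 in blue lower in the middle phase, and contig169027 is at 28035 CPM again at 30 d.

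Contigs with reads in every library of 1 phase and none in the other were mostly covered by few reads. There were 6436 with reads in all 3 middle libraries and 0 in both first-day libraries, and 3291 with reads in both first-day libraries and 0 in all 3 middle libraries. With at least 10 reads in each middle library and 0 in both first-day libraries there were 5 contigs (0.00236% of 211674), and 7 had at least 10 reads in each first-day library and 0 in all 3 middle libraries (0.00331%). Left without any 1 of the 5 libraries, these numbers were 11 to 86 and 12 to 130, both highest without 24 h. The most abundant of the 5, of 341 bases, had 17, 216 and 161 reads at 48 h, 96 h and 7 d and 0 at 12 h and 24 h. Taking 3 reads over the first-day group as the floor, it was at least 92.5-fold higher in the middle phase. It had 1, 0 and 1 reads at 0 h, 2 h and 6 h, and 112 and 75 at 14 d and 30 d. Each of the 5 had 1 to 15 reads at 0 h. In this contig and in another of 512 bases it was 1 read, below the floor of 3 reads, which does not show presence. A contig of 2023 bases had 13 and 29 reads at 0 h and 2 h, 0 at 6 h, 12 h and 24 h, and then 27, 10 and 30 at 48 h, 96 h and 7 d. A contig of 1740 bases had a like course, with 15 and 26 reads at 0 h and 2 h, 0 at 6 h, 12 h and 24 h, and 27, 14 and 21 in the middle phase. Both were at least 14.6-fold higher in the middle phase than the floor of the first day.

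Among the 7 lost contigs, the most abundant, of 2175 bases, had 0 reads in all 3 middle libraries, against 66 and 28 reads at 12 h and 24 h. It was at least 44.5-fold lower than on the first day by the same floor of 3 reads over the middle group. It had 12 and 10 reads at 14 d and 30 d, so its absence was limited to the middle phase in these libraries. The other 6 had 0 to 1 read at 14 d and 0 to 4 at 30 d.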

How the data were processed

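RNA of 10 libraries labelled pearl sac, 1 per time, was analysed from the authors' table of each library. Per the labels' protocols, mRNA was purified and copied from random primers, and fragments were selected by size and amplified by PCR; no molecular identifiers are named. The assembler, aligner and counting program: not given in the sources used here. The deposited reads column was given the unit expected counts (estimated counts, as the authors deposited them): its values are whole numbers except 0.5, which stands exactly where the deposited RPKM is 0 and was read as 0 reads. The RPKM values deposited by the authors served to derive contig lengths and as alternative values. In the 30 d file 166 contigs could not be read; they were left out only where 30 d was used.

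Contigs were kept with filterByExpr, scaled with TMM factors on full library totals and tested with edgeR 4.0.16 (R 4.3.3; glmQLFit and glmQLFTest, Benjamini-Hochberg over 52127 contigs), middle phase over first day, with 3 residual degrees of freedom. TMM factors were lowest at 24 h (0.815) and highest at 7 d (1.30). Single values per library were tested by exact permutation. The fit was tested on simulated data. Alternatives used DESeq2 1.42.0 and limma 3.58.1, other scalings and filters, and fits without single libraries. The edgeR p-values set the difference between the phases against the spread of libraries within a phase, which edgeR moderates across contigs. Reads are not independent molecules, so floors (3 reads for a count of 0) cover counting error only. Levels beside libraries outside the comparison use TMM factors of all 10 libraries.

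The comparison, the sets and the rules were chosen with earlier results of these data known. The rule for named contigs was: for each direction the lowest p, and among called contigs separated under both scalings the largest difference in mean CPM. Positions relative to single groups of other libraries, the shares of reads and the counts of the top 100 were added after the calls had been seen.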

Additional observations from a re-analysis of the deposited data

Results flagged for a closer look

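Contigs with no reads in any of the 5 libraries of the comparison numbered 3907. Over 0, 2 and 6 h they held 5208, 3917 and 3314 reads, and over 14 and 30 d 6164 and 103858 reads. The 30 d value, 0.489% of that library, stands out because it is far above that of 0 h in contigs the comparison could not use. A single contig held 87195 of the 103858 reads, and without it 16663 remained. The cause was not tested.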

How the results depend on the processing

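The 4667 contigs called under TMM became 7739 with total counts, 9410 with no filter, 2084 when 5 CPM on average were asked, 13 with all 10 libraries in 4 phases, 10886 without both 24 h and 48 h, and 0 to 5844 without single libraries; with total counts (added after seeing the data) leaving out 12 h gave 1361, 48 h 9574, 96 h 0 and 7 d 2956. All 13 were lower in the middle phase and among the 4667. DESeq2 size factors, upper quartile factors, DESeq2's test (6410), limma-voom (3152), limma on log2(RPKM + 1) (6413) and a slope on log2(hours) stayed within 1.5 times. The share called higher, 31.6%, was 76.4% with total counts, 74.96% on log2(RPKM + 1), which has no TMM factor, 0% with all 10 libraries and 0% to 38.1% without single libraries; with total counts, leaving out 12 h gave 67.7%, 24 h 52.4%, 48 h 73.1% and 7 d 69.8%. Separated contigs, 12300 higher and 12452 lower, were 20912 and 5880 with total counts (5880 lower under both scalings), 26451 and 35863 with no filter, 3526 and 3612 when 5 CPM on average were asked, and 14039 to 19069 and 13653 to 19160 without single libraries, where fewer libraries have to agree. Those also 4-fold different, 98 and 623, were 255 and 341 with total counts, 636 and 1619 with a prior of 0.1 CPM, 39 and 291 with a prior of 5 CPM, 1736 and 3391 at 2-fold, and 94 to 185 and 447 to 966 without single libraries. The 5 gained contigs were 55 at 5 reads, 0 at 20 reads, 41 with 1 read allowed as absence and 11 to 86 without single libraries; the 7 lost were 56, 1, 30 and 12 to 130. The difference in detected contigs, 7240, was positive throughout (2132 to 13094 without single libraries), as was that in contigs holding 50% of reads, 146 (113 to 179; 24.5 on RPKM, where the groups overlapped). The contigs that rose under both scalings numbered 0 to 2229 and those that fell 0 to 2429 without single libraries. With total counts, DESeq2, limma-voom and each library left out, the 4 named contigs gave 32 values, all in the same direction and 22 past the threshold (adjusted p up to 0.191); with all 10 libraries 1 of the 4 passed, and on log2(RPKM + 1) all 4 did. Where no reason is given, the cause was not tested. Calls are least precise in contigs of under 1 CPM, about 20 reads.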
